A study of Homo sapiens with 24 samples.

Results

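The effect of hypoxia was examined in HCT116 cells that carry ESR2 and were treated with 10 nM 17β-estradiol. The comparison sets the 3 arrays of hypoxic ESR2 cells with estradiol against the 3 arrays of normoxic ESR2 cells with estradiol, chosen by their labels, so that 6 of the 24 arrays of the series enter it. Each gene was represented by its brightest probe set, the one with the highest mean log2 signal over all 24 arrays, which gave 18239 genes. The hypoxic arrays were marked by strong rises of HIF target and glycolysis genes, falls of ribosome biogenesis, splicing and sterol synthesis genes, and, among genes above the median signal, low signals of those that span long stretches of the genome. On the same arrays several control probe sets that read the 5′ end of a transcript were low against those that read its 3′ end. These values are given beside the changes.

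Cells sense oxygen through hydroxylases that use it as a substrate. The EGLN prolyl hydroxylases mark the HIF alpha subunits HIF1A and EPAS1 for destruction through the VHL ubiquitin ligase, and HIF1AN blocks their transactivation domain. When oxygen is scarce the alpha subunits persist, pair with ARNT and bind short DNA motifs near genes of glycolysis, angiogenesis, mitophagy and collagen modification. ESR2 encodes estrogen receptor beta, a nuclear receptor that binds estradiol and is the main estrogen receptor described in colonic epithelium.

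HCT116 is an established human colon cancer line. ESR2 cells had received full-length ESR2 with an N-terminal HaloTag in a lentiviral vector that also carries GFP and puromycin resistance. They were selected with 1 μg/ml puromycin, and the labels give over 80% GFP-positive cells. Both groups compared were kept in phenol-red-free medium with charcoal-stripped serum before and during estradiol, and they differ only in oxygen per the labels. For hypoxia the incubator chamber was flushed with 5% CO2 and 94% N2; the labels do not state for how long. Hypoxia was also compared in ESR2 cells without estradiol and in parental HCT116 cells with 10 nM estradiol, on 6 other arrays each, and these companion comparisons were set beside the result. The labels state neither the medium of the groups without estradiol nor an empty-vector control, so medium and estradiol, or ESR2 and vector, cannot be told apart in those contrasts. Whether replicates come from separate cultures is not in the labels, and p-values here rest on the spread among these arrays alone, which may be technical. Arrays within each of the 2 groups compared correlated at 0.9956 or more across probe sets, and those of parental normoxia without estradiol, which enter the fit, at 0.9882 or more. Array medians of the 6 arrays lay between 4.08 and 4.13 (log2), and 3 arrays per group limit the precision.

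Markers of cell types were read against the median signal of the arrays, which is taken over all probe sets. The median gene read 4.955 (log2) in normoxia with estradiol, above the array medians. Most genes thus lie above that mark, and passing it does not identify the line. Of 11 markers of a colon epithelial line, 7 lay above the median signal of the arrays, with KRT19 at 11.49 and EPCAM at 11.29 as the brightest (mean log2 signal of the 6 arrays). None of 10 fibroblast markers did so (0 of 10), and of 10 leukocyte markers measured 1 did, CD68. Of 8 markers of embryonic kidney lines measured 3 did, the brightest being GATA3 at 4.67 and PAX8 at 4.42, just above the array medians. The signal of ESR2 was dim, and whether its probe sets read the transduced sequence was not tested. ESR2 read 4.48, 4.35 and 4.41 in normoxia and 3.95, 3.93 and 3.92 in hypoxia on its brightest of 8 probe sets, against a mean of 3.44 ± 0.14 (SD, n = 3) in normoxic and 3.48 ± 0.07 (SD, n = 3) in hypoxic parental cells with estradiol. Both ESR2 groups thus lay above the parental groups, and the hypoxic one below the normoxic one with no overlap (log2 change -0.48 ± 0.13 SE, limma adjusted p = 0.00401, 3 of 8 probe sets called lower and 0 higher). ESR1, which encodes estrogen receptor alpha, read between 3.90 and 4.06 in normoxia and between 4.07 and 4.46 in hypoxia, near the array medians, and its call (log2 change 0.25 ± 0.09 SE, adjusted p = 0.028) was lost without hypoxic array 1 (0.14, adjusted p = 0.225) and without normoxic array 2 (0.21, adjusted p = 0.11).

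The 3′ minus 5′ values set the hypoxic estradiol arrays apart from the others. The labelling of these arrays starts at the 3′ end of an RNA, so a larger 3′ minus 5′ value means less signal from parts of a transcript far from that end. For the dap spike-in the value was 3.44, 3.75 and 3.53 (log2) on the hypoxic arrays and 2.12, 2.72 and 2.34 on the normoxic ones. For the thr spike-in it was 3.54, 4.28 and 4.13 against 2.22, 3.19 and 2.67. Beta-actin gave 3.27, 4.01 and 3.73 against 2.69, 3.18 and 3.08. In none of these 3 controls did the groups overlap. The mean of these controls, called the 3′ minus 5′ index here, was 3.74 ± 0.30 (SD, n = 3) in hypoxia and 2.69 ± 0.34 (SD, n = 3) in normoxia. The difference of 1.05 had an exact two-sided permutation p of 0.1, the smallest that 3 against 3 arrays allow. Of the controls examined these 3 rose most, so this difference exceeds that of each control left out of the index. The 28S ribosomal RNA moved the other way, from -7.52 in normoxia to -7.81 in hypoxia (means, n = 3 each). The index was 2.10 in hypoxic ESR2 cells without estradiol, lay between 2.00 and 3.10 on the 17 other arrays, and reached 4.34 on 1 array of no group compared here, replicate 2 of parental normoxia without estradiol, called the outlying parental array below. The lys spike-in gave 0.80 ± 0.21 against 0.51 ± 0.12, and the 18S ribosomal RNA -0.37 ± 0.17 against -0.85 ± 0.03 (SD, n = 3 each). GAPDH moved less, from -0.11 ± 0.02 (SD, n = 3) to 0.04 ± 0.05 (SD, n = 3). The phe spike-in moved from 1.04 ± 0.06 to 1.63 ± 0.20 (SD, n = 3 each). The 3′ minus 5′ values of the hybridisation controls bioB, bioC, bioD and cre, which are added after labelling, differed by between -0.10 and -0.06 (hypoxia minus normoxia), but their levels were higher on the hypoxic arrays. The 3′ probe sets of bioB, bioC, bioD and cre read 7.32, 9.51, 11.63 and 12.61 in hypoxia against 6.55, 8.79, 11.10 and 12.37 in normoxia (mean log2 signal, n = 3). The 3′ ends of the spike-ins dap, lys, phe and thr, added before labelling, were higher as well, at 10.64, 6.90, 8.28 and 8.72 against 9.97, 6.30, 7.64 and 7.92. The 5′ ends of dap and thr were lower, at 7.07 and 4.74 against 7.58 and 5.23. Beta-actin was lower at both ends, with 11.70 against 12.00 at the 3′ end and 8.03 against 9.02 at the 5′ end. Upper quartiles of the 3 hypoxic estradiol arrays lay between 6.34 and 6.37 (log2), below the 6.41 to 6.60 of the other 21 arrays. The part of these levels and differences in the gene changes below was not tested, other than by fitting the index as a covariate, whose slope rests on differences between arrays of the same group.

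**Figure D1:**
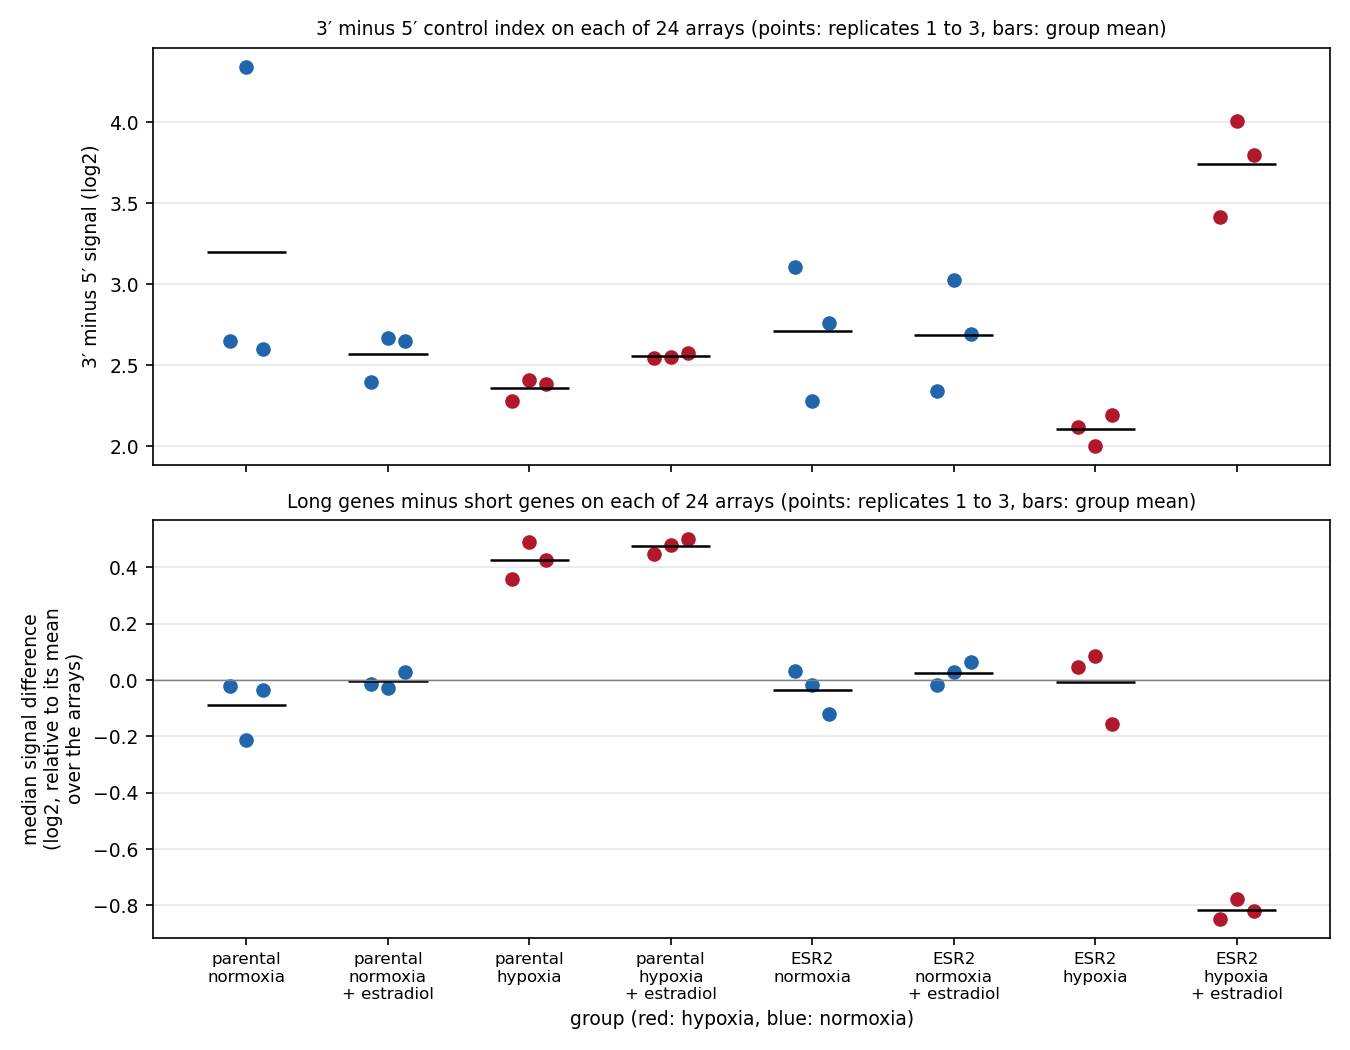
Upper plot: the 3′ minus 5′ index (log2; mean of beta-actin, dap and thr) on each array, with points for replicates and bars for group means in all 8 groups of 3 arrays. Lower plot: the median centred signal of 234 long genes minus that of 1893 short genes (log2) on the same arrays; the hypoxic ESR2 arrays with estradiol sit at 3.42 to 4.01 in the upper plot and at -0.85 to -0.78 in the lower one.

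The signal of many genes differed between hypoxia and normoxia. Added control RNAs differed between the same arrays, so hypoxia and the processing of the arrays cannot be told apart in these changes. At an adjusted p under 0.05, 9534 of 18239 genes (52.3%) were called, 5407 higher in hypoxia (29.6%) and 4127 lower (22.6%). Changes of 2-fold or more were fewer and mostly falls, 453 higher (2.48%) against 967 lower (5.3%). The groups did not overlap for 10718 genes (58.8%), so absence of overlap alone says little about a gene here. Most named genes were chosen by large changes or small p, which favours such absence further. With the index as a covariate and without the outlying parental array, 3008 genes were higher (16.5%) and 3568 lower (19.6%), and counts of list members in that fit, given below as the adjusted fit, are to be read against these shares. Counts of list members in the fit without the covariate are to be read against 29.6% higher and 22.6% lower. Those of the interaction with estradiol are to be read against 25.4% and 18.4%, and with ESR2 against 20.6% and 18.1%. The median change over all genes was 0.08 (log2). Without estradiol the same cells had 5940 genes called (32.6%), with 225 higher (1.23%) and 93 lower (0.51%) by 2-fold or more. Parental cells with estradiol had 6345 called (34.8%), with 419 (2.3%) and 432 (2.37%) past 2-fold. Of the 453 genes higher by 2-fold, 336 have several probe sets, and in 286 of these all probe sets moved up. Of the 967 lower ones, 775 have several, all moved down in 447, and in 130 at least 1 probe set was called higher. Averaging the probe sets of a gene in place of taking the brightest left 262 genes higher and 518 lower by 2-fold or more.

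The largest rises were WFDC3, ANKRD37, CXCR4, NDRG1, P4HA1, ADM, TMEM38A, SLCO1B3, H2BC5, ANGPTL4, TUBA4A and ZNF654, between 5.46-fold and 14.7-fold. WFDC3, which encodes a protein with whey acidic protein domains, read 3.84, 4.37 and 4.44 (log2 signal) in normoxia and 8.10, 8.19 and 7.99 in hypoxia. ANKRD37, an ankyrin repeat gene known as a direct HIF target, read 6.99, 6.95 and 6.60 against 10.60, 10.58 and 10.59. The chemokine receptor gene CXCR4 read 4.50, 4.96 and 4.87 against 8.26, 8.21 and 8.25. In these 3 genes every hypoxic array lay far above every normoxic one, and the choice of genes required the groups not to overlap. Their changes were 3.88 ± 0.13, 3.74 ± 0.08 and 3.47 ± 0.11 (log2 ± SE), with limma adjusted p of 2.45e-16, 2.43e-19 and 5.1e-17. NDRG1, a stress-induced gene of differentiation, read 7.54, 7.71 and 7.56 against 10.98, 10.96 and 10.93. P4HA1, a subunit of the prolyl hydroxylase that acts on collagen, read 7.74, 7.57 and 7.58 against 10.65, 10.79 and 10.60. ADM, the gene of the vasodilator peptide adrenomedullin, read 7.81, 7.84 and 7.57 against 10.60, 10.54 and 10.49. These 3 had changes of 3.36, 3.05 and 2.81 with SEs of 0.08 to 0.10.

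Several of these rises were larger than in the companion comparisons. TUBA4A, an alpha tubulin gene, read 8.02, 8.02 and 7.98 in normoxia and 10.55, 10.58 and 10.56 in hypoxia, a change of 2.56 ± 0.07 SE. Its change was 1.15 in ESR2 cells without estradiol and -0.01 in parental cells with estradiol, and the interactions were 1.41 (adjusted p = 8.97e-11) and 2.56 (adjusted p = 3.01e-15). TMEM38A, which encodes an intracellular cation channel, rose by 2.65 against 1.25 and -0.12, with interactions of 1.40 and 2.77. WFDC3 rose by 3.88 against 2.49 and 2.15, with interactions of 1.38 and 1.73. ZNF654 rose by 2.45 against 1.46 and 1.01. All 4 of these genes passed the test of both interactions, but they were chosen by large rises on arrays that enter both. ADM and NDRG1, on the other hand, rose less than in parental cells with estradiol, where their changes were 4.47 and 4.56, while the test against ESR2 cells without estradiol was not passed (-0.30, adjusted p = 0.0868, and 0.10, adjusted p = 0.484). SLCO1B3, a hepatic organic anion transporter gene, and H2BC5, a histone H2B gene, had changes of 2.60 and 2.57 and passed neither interaction.

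**Figure D2:**
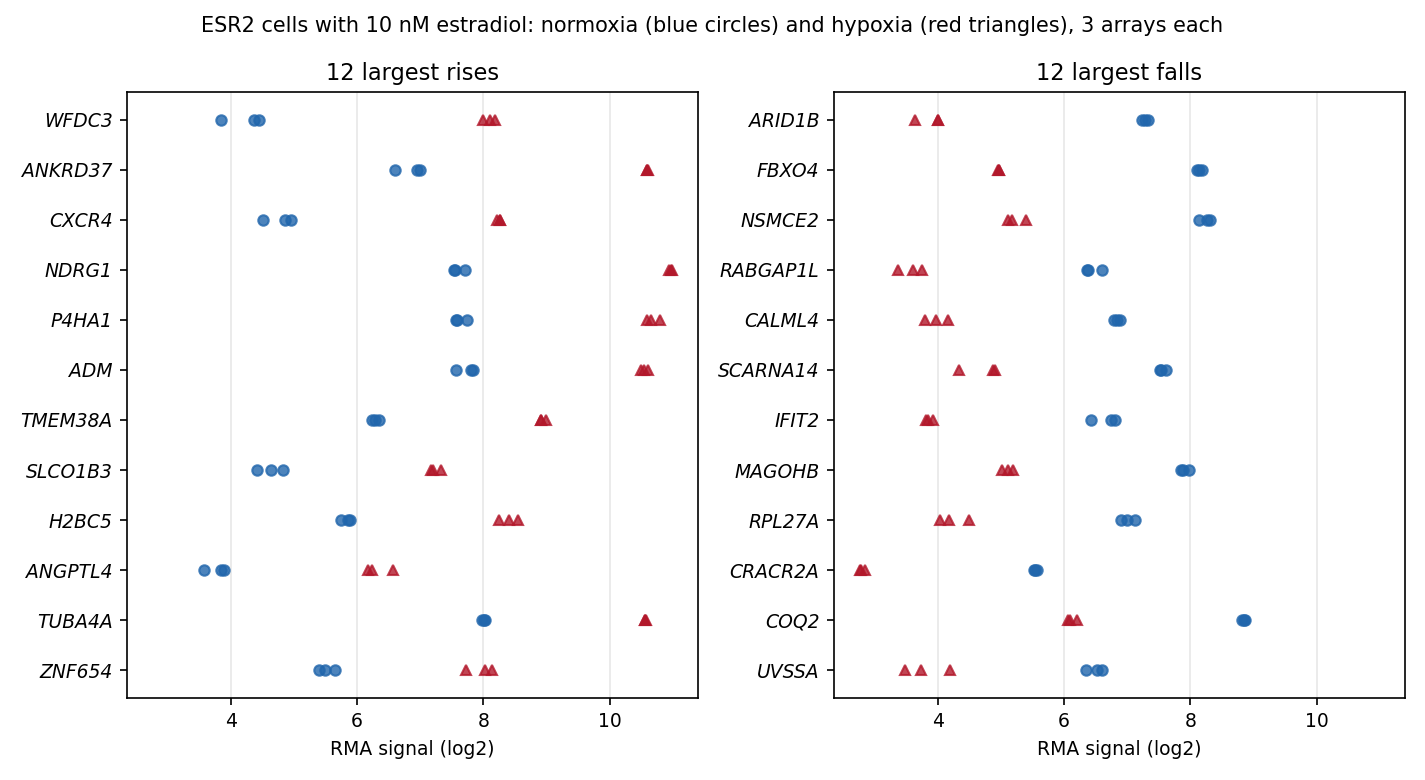
Log2 RMA signal on each of the 6 arrays for the 12 largest rises and the 12 largest falls; circles are normoxia and triangles hypoxia. The groups do not overlap for any of these genes, which the choice of genes required.

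Promoters of the largest rises are shown because the HIF dimer is known to read the core ACGTG or GCGTG. The RefSeq promoter table (GRCh38.p14; 250 bases before to 50 after the start, 300 bases) held 10 of the 12, all but NDRG1 and ZNF654. At least 1 of these letter runs, on either strand, stood in 6 of the 10: ANKRD37, CXCR4, P4HA1, ADM, ANGPTL4 and TUBA4A. The 4 below are those of the collagen, peptide, ankyrin repeat and tubulin genes, 5′ to 3′ on the gene's strand, with matches on either strand in capitals.
ANKRD37: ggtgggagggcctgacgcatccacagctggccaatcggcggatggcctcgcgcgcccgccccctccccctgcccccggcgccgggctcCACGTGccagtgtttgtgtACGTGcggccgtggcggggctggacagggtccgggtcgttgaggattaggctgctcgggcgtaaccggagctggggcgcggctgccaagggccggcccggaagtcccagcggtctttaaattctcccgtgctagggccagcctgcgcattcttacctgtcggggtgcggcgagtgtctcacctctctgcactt
P4HA1: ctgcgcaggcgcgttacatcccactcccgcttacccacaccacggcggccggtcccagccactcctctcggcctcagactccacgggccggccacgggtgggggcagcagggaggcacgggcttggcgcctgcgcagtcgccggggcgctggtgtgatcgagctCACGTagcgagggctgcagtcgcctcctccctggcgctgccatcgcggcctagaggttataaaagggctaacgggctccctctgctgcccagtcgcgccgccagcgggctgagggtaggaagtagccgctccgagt
ADM: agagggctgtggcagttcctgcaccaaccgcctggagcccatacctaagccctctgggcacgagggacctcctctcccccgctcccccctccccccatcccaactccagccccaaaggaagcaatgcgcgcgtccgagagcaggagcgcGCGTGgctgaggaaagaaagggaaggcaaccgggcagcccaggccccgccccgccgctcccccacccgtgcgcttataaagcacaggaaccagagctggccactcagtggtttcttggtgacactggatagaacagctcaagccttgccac
TUBA4A: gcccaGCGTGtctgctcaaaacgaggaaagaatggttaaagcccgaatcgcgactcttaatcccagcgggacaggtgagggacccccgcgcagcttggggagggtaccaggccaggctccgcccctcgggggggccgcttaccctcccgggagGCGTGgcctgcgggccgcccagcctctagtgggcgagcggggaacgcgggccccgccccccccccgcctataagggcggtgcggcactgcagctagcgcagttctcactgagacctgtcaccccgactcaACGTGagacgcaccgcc
They lie at chr4:185396591-185396890 (plus strand), chr10:73096817-73097116 (minus), chr11:10304823-10305122 (plus) and chr2:219253869-219254168 (minus). The ANKRD37 window holds 3 matches to ACGTG, of which 2 are both strands of 1 palindrome CACGTG, and the P4HA1 window holds 1. The ADM window holds 1 GCGTG, and the TUBA4A window 1 ACGTG and 2 GCGTG. Either run stood in 56.6% of the 14492 promoters of tested genes, in 60.0% of the 365 of genes higher by 2-fold or more and in 66.8% of the 826 of genes lower by 2-fold or more. The share was 87.1% among 31 HIF targets outside glycolysis and 73.9% among 23 glycolysis genes. The consensus estrogen response element, searched by its palindromic core, stood in 4 of the 14492 promoters (0.0276%) and in none of the 365 or the 826 (0.0%). A match is a description of letters in this window and no evidence of binding.

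The largest falls were ARID1B, FBXO4, NSMCE2, RABGAP1L, CALML4, SCARNA14, IFIT2, MAGOHB, RPL27A, CRACR2A, COQ2 and UVSSA, between 6.45-fold and 10.5-fold. ARID1B, a DNA-binding subunit of the SWI/SNF chromatin remodeller, read 7.33, 7.27 and 7.23 in normoxia and 3.65, 4.01 and 4.0 in hypoxia. It thus fell from well above to below the array medians, by 3.39 on the log2 scale (SE 0.10, adjusted p = 2.13e-17), and both of its probe sets were called lower. FBXO4, an F-box gene of an SCF ubiquitin ligase, read 8.10, 8.18 and 8.13 against 4.95, 4.96 and 4.98, but only 1 of its 3 probe sets was called lower. COQ2, an enzyme of coenzyme Q synthesis, read 8.85, 8.81 and 8.86 against 6.10, 6.07 and 6.21, with 2 of 3 probe sets called lower and 1 higher. Probe sets therefore differed within genes of this group more than within the rises, where every probe set of all 12 genes was called higher. RPL27A, a ribosomal protein gene, fell from 6.91, 7.12 and 6.99 to 4.04, 4.50 and 4.18 on its only probe set. IFIT2, an interferon-induced gene, fell from 6.75, 6.80 and 6.43 to 3.85, 3.92 and 3.81. MAGOHB, a component of the exon junction complex, fell from 7.89, 7.84 and 7.98 to 5.12, 5.19 and 5.01. Both probe sets of IFIT2 and of MAGOHB were called lower.

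Among the 14 genes of oxygen sensing, 5 rose (35.7%) and 4 fell (28.6%), shares near those of all genes, with a median change of 0.01. HIF1A, the main HIF alpha subunit, read 10.40, 10.42 and 10.41 in normoxia and 8.30, 8.44 and 8.29 in hypoxia. The mRNA thus fell by 2.07 on the log2 scale (SE 0.09, adjusted p = 9.36e-15), with all 8 probe sets called lower. It fell by 1.72 without estradiol and by 0.69 in parental cells with estradiol, and the interactions were -0.35 (adjusted p = 0.0333) and -1.37 (adjusted p = 7.99e-09). EPAS1, the gene of HIF-2 alpha, rose from 6.35, 6.30 and 6.47 to 7.25, 7.2 and 7.04 (change 0.79), and the CBP/p300 competitor gene CITED2 by 1.09, the largest rise of the list. EGLN1, the main oxygen sensor of the EGLN family, rose from 9.10, 9.17 and 8.99 to 9.85, 9.86 and 9.65 (change 0.70 ± 0.10 SE). Its rise was smaller than the 1.31 without estradiol and the 1.45 in parental cells with estradiol (interactions -0.60, adjusted p = 0.00182, and -0.75, adjusted p = 0.000177). EGLN3, a HIF-induced family member, read 3.44, 3.64 and 3.67 against 3.68, 4.03 and 3.49 and was not called (0.15, adjusted p = 0.275), while it rose by 1.03 and 1.32 in the companions. The difference itself passed the test in both cases (-0.89, adjusted p = 9.81e-05, and -1.17, adjusted p = 1.8e-06). HIF1AN and VHL were not called (-0.03, adjusted p = 0.75, and -0.33, adjusted p = 0.0903), and VHL passed without the outlying parental array in the fit (adjusted p = 0.00949). ARNT, the partner of the alpha subunits, fell by 0.49 on its brightest probe set, but 3 of its 5 probe sets were called higher, and the mean of its probe sets rose by 0.41. CITED2 was chosen after its value was seen.

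HIF targets outside glycolysis rose as a group. Of 38 members measured, 29 were called higher, 2 lower and 7 were not called, with a median change of 1.03 against 0.08 over all genes and 29.6% called higher. In addition to those described above, the mitophagy receptor genes BNIP3L and BNIP3 rose. BNIP3L read 8.63, 8.63 and 8.56 in normoxia and 10.71, 10.82 and 10.70 in hypoxia (2.13 ± 0.11 SE), and all 6 of its probe sets were called higher. BNIP3 read 9.70, 9.59 and 9.52 against 11.08, 11.08 and 11.19 (1.51 ± 0.06 SE). The 2 members that fell, chosen after their values were seen, were KDM4B, a histone demethylase gene, and ZNF395. KDM4B fell by 1.43 (SE 0.14) but rose by 0.83 without estradiol and by 1.46 in parental cells with estradiol. ZNF395 fell by 0.93 (SE 0.08) and rose by 0.79 and 0.94 in the companions. Both passed the test of the interaction with estradiol.

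The sizes of these rises differed from those of the companions for part of the list. In ESR2 cells without estradiol the median change of the list was 1.24, and in the interaction 5 members were higher and 11 lower with estradiol (25.4% and 18.4% of all genes). In parental cells with estradiol the median was 2.00, and in the interaction 1 member was higher and 25 lower in ESR2 cells (20.6% and 18.1% of all genes). VEGFA, the angiogenic growth factor, read 8.26, 8.49 and 8.37 in normoxia and 9.03, 8.98 and 8.71 in hypoxia, with 7 of 10 probe sets called higher. Its rise of 0.53 was below the 1.16 without estradiol and the 1.88 in parental cells (interactions -0.63, adjusted p = 0.000366, and -1.35, adjusted p = 8.89e-09). DDIT4, an inhibitor of mTORC1, rose by 2.16, against 3.14 and 4.75. VEGFA and DDIT4 were named after their values were seen. STC2, a secreted glycoprotein gene that is also estrogen responsive, rose from 6.27, 6.30 and 6.12 to 7.32, 7.25 and 7.08. Its change of 0.99 ± 0.08 SE was below the 2.02 without estradiol and the 2.19 in parental cells (interactions -1.04, adjusted p = 9.51e-08, and -1.20, adjusted p = 5.08e-09). CXCR4, with changes of 3.47, 3.48 and 3.87, did not pass the interaction with estradiol (-0.02, adjusted p = 0.933). With the 3′ minus 5′ index as a covariate 28 members were higher and 2 lower, with a median of 1.00.

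Glycolysis and glucose uptake genes rose in 19 of 23 members and fell in 2 (82.6% and 8.7%, against 29.6% and 22.6% of all genes). The median change was 0.89. ALDOC, an aldolase, read 9.02, 9.0 and 8.84 in normoxia and 11.44, 11.39 and 11.34 in hypoxia. GPI, the glucose-6-phosphate isomerase, read 9.24, 9.33 and 9.26 against 11.62, 11.54 and 11.71. PDK1, which keeps pyruvate out of the mitochondrial cycle by inhibiting pyruvate dehydrogenase, read 6.89, 6.74 and 6.63 against 8.68, 8.72 and 8.67. The groups of these 3 genes, named for their small p, did not overlap, as in 58.8% of all genes. The changes were 2.43 ± 0.06, 2.35 ± 0.07 and 1.94 ± 0.09 (SE). SLC2A1, the glucose transporter GLUT1, rose from 7.82, 7.96 and 7.87 to 9.75, 9.52 and 9.63 (1.75 ± 0.08 SE), less than in the companions, where it rose by 2.61 and 2.69 (interactions -0.87, adjusted p = 3e-06, and -0.94, adjusted p = 5.82e-07). GPI went the other way, with a larger rise than the 1.65 and 1.52 of the companions (interactions 0.70 and 0.83). The 2 members that fell, chosen after their values were seen, were PDK3 (-0.60 ± 0.11 SE) and PFKFB3 (-0.56 ± 0.09 SE), which rose by 0.69 and 0.55 without estradiol. The list's median was 0.81 without estradiol and 0.87 in parental cells with estradiol, and with the index as a covariate the median was 0.68 with the same counts of 19 and 2. The adjusted fit had 19 higher and 1 lower.

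**Figure D3:**
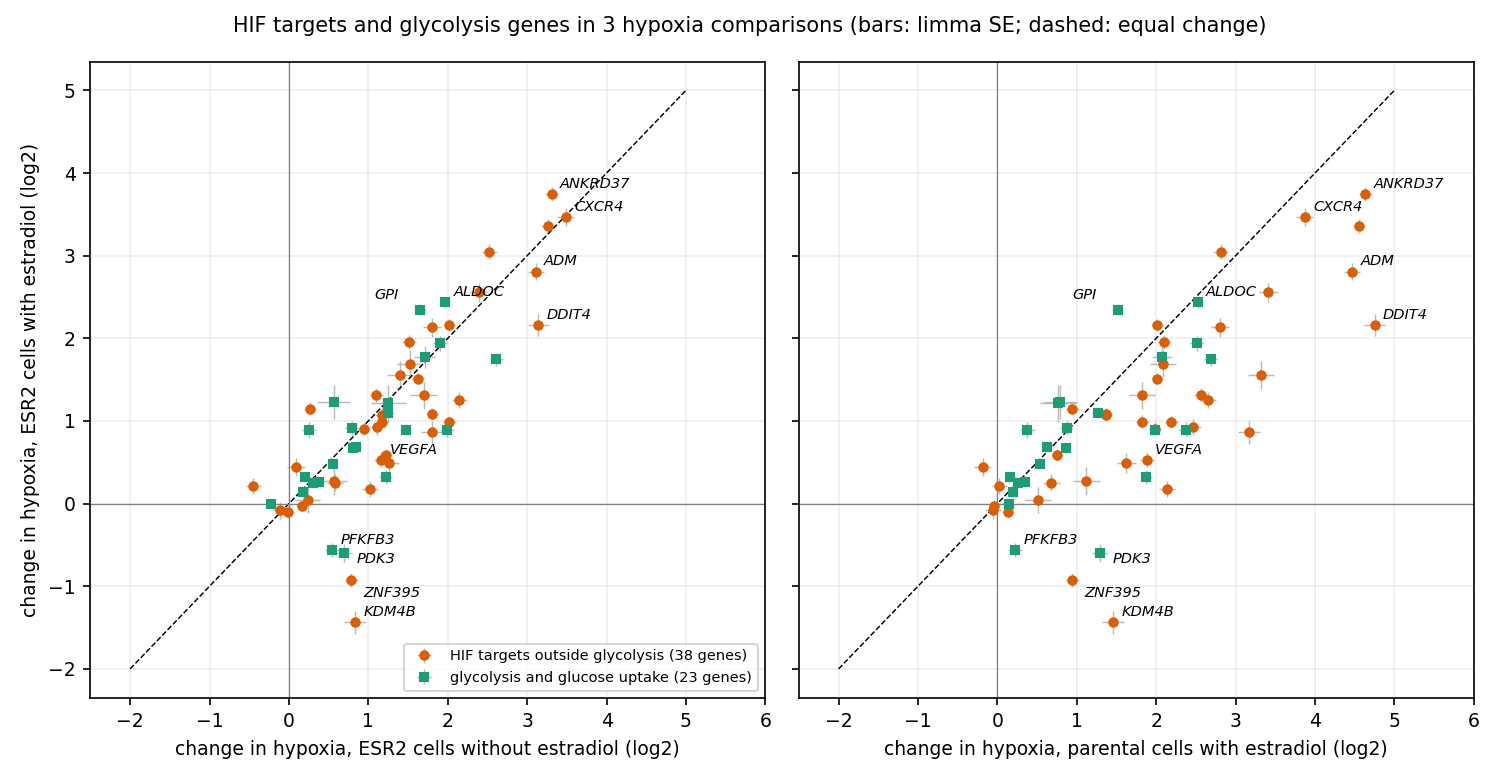
Change in hypoxia (log2, with limma SE) of 38 HIF targets and 23 glycolysis genes in ESR2 cells with estradiol, on the vertical axis, against ESR2 cells without estradiol (left) and parental cells with estradiol (right). On the dashed line changes are equal; KDM4B, ZNF395, PDK3 and PFKFB3 lie below 0 with estradiol in ESR2 cells and above 0 in both companions.

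Respiratory chain genes fell in 12 of 34 members and rose in 2, with a median of -0.10. NDUFV2, a subunit of complex I, read 10.83, 10.81 and 10.81 in normoxia and 9.79, 9.78 and 9.92 in hypoxia (-0.99 ± 0.06 SE). The complex II subunit gene SDHD fell from 9.94, 9.89 and 9.95 to 9.39, 9.31 and 9.44, with all 5 probe sets called lower. The groups of both genes lay apart, as in 58.8% of all genes. The changes of both were lower than without estradiol (interactions -0.56 and -0.36, adjusted p = 8.88e-06 and 0.0023). The list as a set did not share this, with 7 members higher and 7 lower in that interaction (25.4% and 18.4% of all genes). Without estradiol 18 members fell and 3 rose, with a median of -0.17. NDUFB5, another complex I subunit gene, rose from 10.09, 9.99 and 9.96 to 10.53, 10.50 and 10.50. Of the members 35.3% were called lower, against 22.6% of all genes. The adjusted fit had 7 lower and 1 higher, so the count depends on that setting.

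Genes of ribosome biogenesis fell in 28 of 34 members (82.4%, against 22.6% of all genes), and 6 were not called. By limma 0 rose at an adjusted p under 0.05, while 1 did at an unadjusted p under 0.05. The median change was -0.81. NIP7, a factor of ribosomal RNA processing, read 9.71, 9.65 and 9.73 in normoxia and 8.36, 8.37 and 8.39 in hypoxia (-1.32 ± 0.06 SE, adjusted p = 1.01e-14). RRS1, which acts in assembly of the large subunit, read 8.76, 8.80 and 8.75 against 7.31, 7.25 and 7.17. MRTO4 fell by 1.30 and NOP16 by 1.30 as well. No overlap of groups was seen in these 4 genes, named for their small p, as in 58.8% of all genes. Parental cells with estradiol had a median of -0.85 and ESR2 cells without estradiol one of -0.32. In the interaction with estradiol 21 members were lower and 4 higher (18.4% and 25.4% of all genes). RRS1 had a change of 0.00 without estradiol and an interaction of -1.53 (adjusted p = 2.06e-09). In the interaction with ESR2, 12 members of the list were higher and 4 lower (20.6% and 18.1% of all genes). The covariate left 27 members lower, with a median of -0.78.

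Of 42 genes of cytosolic ribosomal proteins 6 were called higher and 6 lower (14.3% each, against 29.6% and 22.6% of all genes). Their median was 0.02. RPS9 read 11.51, 11.48 and 11.46 in normoxia and 11.71, 11.63 and 11.68 in hypoxia, and RPL8 rose by 0.17. RPS25 read 12.61, 12.68 and 12.70 against 12.52, 12.51 and 12.51. With the index as a covariate 3 were called in each direction. In the adjusted fit 1 member was called, in the lower direction, and the calls of RPS9, RPL8 and RPS25 were lost (limma adjusted p = 0.112, 0.139 and 0.151). Those of RPL8 and RPS25 were also lost when only the groups compared were fitted (adjusted p = 0.0525 and 0.08).

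Splicing regulators of the SR, hnRNP and CLK families fell in 20 of 30 members and rose in 4, with a median of -0.30. SRSF2, an SR protein gene, read 10.45, 10.29 and 10.25 in normoxia and 8.43, 8.70 and 8.51 in hypoxia (-1.79 ± 0.07 SE). SRSF1 read 11.12, 11.20 and 11.10 against 9.61, 9.63 and 9.57, and all 6 of its probe sets were called lower. TRA2B, a splicing activator, read 11.33, 11.27 and 11.27 against 9.82, 9.80 and 9.70, with 9 of 10 probe sets called lower. TRA2A fell by 1.81. These 4 falls were larger than without estradiol, where the changes were -0.55, -0.46, -0.48 and -0.17 (interactions from -1.64 to -1.04, adjusted p of 5.38e-08 or less). The 4 members that rose, chosen after their values were seen, were the kinase genes CLK1 (1.40) and CLK3 (1.15), and RSRP1 (0.77) and LUC7L3 (0.38). In the interaction with estradiol 19 members of the list were lower and 3 higher, against 18.4% and 25.4% of all genes.

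Of 40 genes of DNA replication 8 rose and 18 fell (20% and 45%, against 29.6% and 22.6% of all genes). Their median was -0.09. CHAF1A, a subunit of the histone chaperone CAF-1, read 8.30, 8.29 and 8.26 in normoxia and 6.0, 6.11 and 6.11 in hypoxia (-2.21 ± 0.08 SE), with all 3 probe sets called lower. TK1, the thymidine kinase of S phase, read 9.60, 9.65 and 9.57 against 10.94, 11.07 and 11.00 (1.40 ± 0.07 SE). The 2 genes moved in opposite directions with no overlap of groups, as in 58.8% of all genes. PRIM1 and GINS3, of the primase and the replicative helicase, fell by 1.27 and 1.02. The cyclin gene CCNE2 rose from 8.29, 8.19 and 8.19 to 9.92, 10.31 and 10.08. Its change of 1.89 ± 0.13 SE stood against 0.25 without estradiol and -1.86 in parental cells with estradiol, and its interaction with ESR2 of 3.74 (adjusted p = 3.86e-13) was the highest of all genes.

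Mitosis genes rose in 9 of 33 members and fell in 12 (27.3% and 36.4%, against 29.6% and 22.6% of all genes). Their median was -0.02. BUB1B, a checkpoint kinase gene, read 8.85, 8.85 and 8.88 in normoxia and 7.88, 7.86 and 7.84 in hypoxia. CCNB1, the mitotic cyclin B1, fell from 10.36, 10.26 and 10.35 to 9.77, 9.80 and 9.79, and MAD2L1 by 0.51. MKI67 fell by 1.04 on its brightest probe set, but of its 6 probe sets 1 was called higher and 1 lower, and their mean was not called (-0.16, adjusted p = 0.148). Of the members 4 were higher and 10 lower in the adjusted fit.

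Of 23 p53 targets 8 rose and 3 fell (34.8% and 13%, against 29.6% and 22.6% of all genes). Their median was 0.17. TP53I3, a quinone oxidoreductase gene, rose from 7.15, 7.45 and 7.42 to 9.77, 9.83 and 9.76 (2.45 ± 0.10 SE). CDKN1A, the cyclin kinase inhibitor p21, rose from 9.39, 9.67 and 9.65 to 10.44, 10.48 and 10.36. XPC, of nucleotide excision repair, fell from 7.24, 7.55 and 7.43 to 5.84, 5.93 and 5.85. All 3 lay apart between the groups, as did 58.8% of all genes. TP53I3 and XPC, with changes of 0.88 and 0.20 without estradiol, passed the interaction with estradiol (1.57, adjusted p = 9.2e-09, and -1.73, adjusted p = 3.74e-11), as did CDKN1A (0.79, adjusted p = 0.000161) and the death receptor gene FAS (1.29, adjusted p = 6.22e-07).

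Cholesterol synthesis genes fell in 10 of 19 members and 1 rose (52.6% and 5.26%, against 22.6% and 29.6% of all genes). Their median was -0.31. HMGCS1, which makes HMG-CoA, read 9.65, 9.64 and 9.70 in normoxia and 8.29, 8.54 and 8.13 in hypoxia (-1.34 ± 0.10 SE). HSD17B7 fell from 6.73, 6.63 and 6.68 to 5.67, 5.9 and 5.67, and PMVK by 0.95. The member that rose, TM7SF2, a sterol reductase, read 6.10, 6.07 and 6.09 against 7.52, 7.48 and 7.66, and all 5 of its probe sets were called higher. In ESR2 cells without estradiol 9 members fell and 1 rose, whereas in parental cells with estradiol 11 rose and 0 fell (limma; 2 fell at an unadjusted p under 0.05). The interaction with ESR2 was lower for 12 members and higher for 1 (18.1% and 20.6% of all genes). That with estradiol was lower for 2 and higher for 1 (18.4% and 25.4% of all genes). Of 17 genes of fatty acid and triglyceride synthesis 6 rose and 8 fell (35.3% and 47.1%, against 29.6% and 22.6% of all genes). In the adjusted fit 3 of them were higher and 5 lower. ACACA, the first enzyme of fatty acid synthesis, fell from 8.04, 8.18 and 8.37 to 6.34, 6.22 and 6.21, and ELOVL6 by 1.41. PLIN2, a coat protein of lipid droplets, rose from 7.48, 7.41 and 7.48 to 8.64, 8.67 and 8.57, and FADS1 by 0.91. ACACA changed by -0.36 without estradiol and 0.29 in parental cells (interactions -1.58 and -2.23).

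Of 27 genes of ATF4 and amino acid stress 9 rose and 10 fell (33.3% and 37%, against 29.6% and 22.6% of all genes). ATF3, a stress-induced transcription factor, rose from 7.24, 7.29 and 7.16 to 9.08, 9.20 and 9.06, PHGDH by 1.14 and ASNS by 0.94, while SARS1 fell by 1.45. SLC7A11, the cystine transporter that is also an NRF2 target, fell from 6.87, 7.07 and 7.26 to 4.88, 5.32 and 5.00, though 1 of its 3 probe sets was called higher. Of 22 NRF2 targets 7 rose (31.8%) and 5 fell (22.7%), shares at the level of all genes. GCLM, of glutathione synthesis, read 9.73, 9.73 and 9.69 against 8.34, 8.30 and 8.23, and ME1 fell by 1.35, while NQO1 rose by 0.54. Among 8 genes of metallothioneins and zinc export 3 rose and 2 fell (37.5% and 25%, against 29.6% and 22.6% of all genes). MT1F and MT1X rose by 0.57 and 0.40, and MT1E was lower (-0.28). In the adjusted fit 3 were higher and 1 lower, and the call of MT1E was lost (limma adjusted p = 0.175). SLC30A1, the zinc exporter, fell by 1.42 on its brighter probe set, but its other one was called higher, and the mean of both was not called (-0.04, adjusted p = 0.632).

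Of 22 ER chaperone genes 11 rose and 4 fell (50% and 18.2%, against 29.6% and 22.6% of all genes), with a median of 0.25. PDIA3, a disulfide isomerase, read 9.43, 9.37 and 9.37 in normoxia and 10.59, 10.83 and 10.71 in hypoxia, and EDEM1, of ER degradation, rose by 1.03. SDF2L1 fell from 9.09, 9.11 and 9.12 to 8.06, 8.08 and 7.86, and DNAJB11 by 0.67. PDIA3 rose by 1.32 without estradiol too, while its change of 0.20 in parental cells with estradiol was not called (interaction with ESR2 1.12, adjusted p = 6.94e-07). Heat shock genes rose in 7 and fell in 8 of 19 (36.8% and 42.1%, against 29.6% and 22.6% of all genes). Their median was -0.12, against 0.31 without estradiol. In the adjusted fit 5 were higher and 5 lower. In the interaction with estradiol 10 were lower and 2 higher (18.4% and 25.4% of all genes). HSPA8, the constitutive HSP70, read 12.83, 12.86 and 12.84 against 12.05, 12.01 and 12.04, with 5 of 7 probe sets called lower and 1 higher. DNAJA1 fell by 0.93 on its brightest probe set, but 3 of 5 were called higher, and their mean was not called (0.074, adjusted p = 0.238). HSF1 and DNAJB4 rose by 0.90 and 0.83. Autophagy and mitophagy genes rose in 13 of 28 and fell in 5 (46.4% and 17.9%, against 29.6% and 22.6% of all genes). Their median was 0.16, and in the adjusted fit 10 were higher and 3 lower. OPTN, an autophagy receptor, rose from 5.82, 6.04 and 6.04 to 7.80, 7.92 and 7.79, and MAP1LC3B by 0.92.

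Immediate early and MAPK feedback genes rose in 17 of 33 members and fell in 4 (51.5% and 12.1%, against 29.6% and 22.6% of all genes). Their median was 0.38. DUSP4, a phosphatase that acts on ERK, read 8.84, 8.83 and 8.84 in normoxia and 10.38, 10.27 and 10.29 in hypoxia (1.47 ± 0.06 SE), and FOS, an AP-1 subunit, rose from 6.24, 6.31 and 6.19 to 7.92, 8.07 and 7.66. Neither passed the interaction with estradiol. SPRED1, an inhibitor of RAS signalling, fell by 1.40. Over the list, however, 17 members were lower and 1 higher in that interaction (18.4% and 25.4% of all genes). The list's median change was 0.59 without estradiol. Of 22 NF-kB and cytokine genes 5 rose and 6 fell (22.7% and 27.3%, against 29.6% and 22.6% of all genes). In the adjusted fit 3 were higher and 5 lower. CXCL10, a chemokine, fell from 6.32, 6.90 and 6.69 to 4.33, 4.57 and 4.55, and by 2.11 without estradiol as well. Its change was -0.05 in parental cells (interaction with ESR2 -2.11, adjusted p = 4.08e-09). PTGS2, the inducible cyclooxygenase, rose by 1.62, and TNFAIP3 and NFKB1 fell by 0.79 and 0.86.

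Type I interferon response genes rose in 14 of 30 members and fell in 5 (46.7% and 16.7%, against 29.6% and 22.6% of all genes). Their median was 0.17. IRF7, a regulator of interferon genes, rose from 5.63, 5.34 and 5.74 to 7.83, 7.89 and 8.07 (2.36 ± 0.13 SE), and ISG20 by 0.95. IFIT3 fell from 5.91, 5.65 and 5.78 to 4.19, 3.98 and 4.20, beside IFIT2. IRF7 thus moved against the IFIT genes of the same list. Its change was 0.50 without estradiol and 0.06 in parental cells with estradiol (interactions 1.86 and 2.30). Among 21 targets of Wnt signalling 10 were called higher and 4 lower (47.6% and 19%, against 29.6% and 22.6% of all genes). In the adjusted fit 5 were higher and 5 lower. FZD7, a Wnt receptor, rose by 1.24 and CD44 by 0.80 with 9 of 10 probe sets called higher. DKK1, a Wnt antagonist, read 12.34, 12.37 and 12.40 against 11.80, 11.82 and 11.80, and MYC read 10.69, 10.62 and 10.66 against 10.19, 10.22 and 10.02. Both were lower with no overlap, as in 58.8% of all genes, and passed the interaction with estradiol (-0.52 and -0.75).

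Of 31 estrogen response genes 14 rose and 6 fell (29.6% and 22.6% of all genes), with a median of 0.08, as over all genes. GREB1, a classical estrogen receptor target named after its value was seen, read 6.09, 6.08 and 6.35 in normoxia and 5.67, 5.43 and 4.96 in hypoxia, and rose by 0.80 without estradiol and by 0.91 in parental cells (interactions -1.62 and -1.73). TFF1, another such gene, was not called (0.03, adjusted p = 0.839). MYB, a transcription factor gene, rose from 4.80, 4.80 and 4.99 to 5.91, 6.04 and 5.94, and FHL2 by 0.63. KRT19, a keratin, read 11.12, 11.14 and 11.13 against 11.85, 11.86 and 11.82. With the index as a covariate 8 were higher and 7 lower, and in the adjusted fit 7 and 6.

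Of 28 genes of junctions and keratins 19 rose and 3 fell (67.9% and 10.7%, against 29.6% and 22.6% of all genes). Their median was 0.35, and in the adjusted fit 13 were higher and 2 lower. CDH3, the gene of P-cadherin, read 6.46, 6.50 and 6.54 in normoxia and 8.0, 7.96 and 7.98 in hypoxia (1.48 ± 0.07 SE). KRT18 rose from 10.04, 10.11 and 10.07 to 11.27, 11.16 and 11.22, and the desmocollin gene DSC2 by 1.13. Of 26 enterocyte and goblet genes 11 rose (42.3%, against 29.6% of all genes). By limma 0 fell, also at an unadjusted p under 0.05, and the median was 0.19. In the adjusted fit 6 rose. The list was dim, with a median signal of 3.26 in normoxia, below the array medians. KRT20, a keratin of differentiated colonocytes, read 3.18, 3.11 and 3.27 against 4.23, 4.33 and 4.46, from below to just above the array medians. CA2, a carbonic anhydrase, read 9.29, 9.18 and 9.12 against 10.42, 10.47 and 10.39, with interactions of 0.89 and 1.60. Of 22 epithelial-mesenchymal genes 16 rose and 1 fell (72.7% and 4.55%, against 29.6% and 22.6% of all genes). Their median was 0.38, and in the adjusted fit 11 were higher and 1 lower. SNAI2, a transcription factor of that transition, rose from 6.32, 6.45 and 6.29 to 7.99, 7.94 and 7.66, and VIM, the gene of vimentin, by 0.85. The urokinase gene PLAU and its receptor gene PLAUR rose by 1.28 and 1.38. The member that fell, chosen after its value was seen, was the repressor gene ZEB1 (-0.92). Genes of epithelial and of mesenchymal lists thus rose on the same arrays. The summed colon epithelial markers were 13.27 to 13.34 (log2) in hypoxia and 12.63 to 12.71 in normoxia, and their part in these results was not tested. In bulk RNA, a changed share of cells of a type and a changed amount of RNA per cell cannot be told apart.

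**Figure D4:**
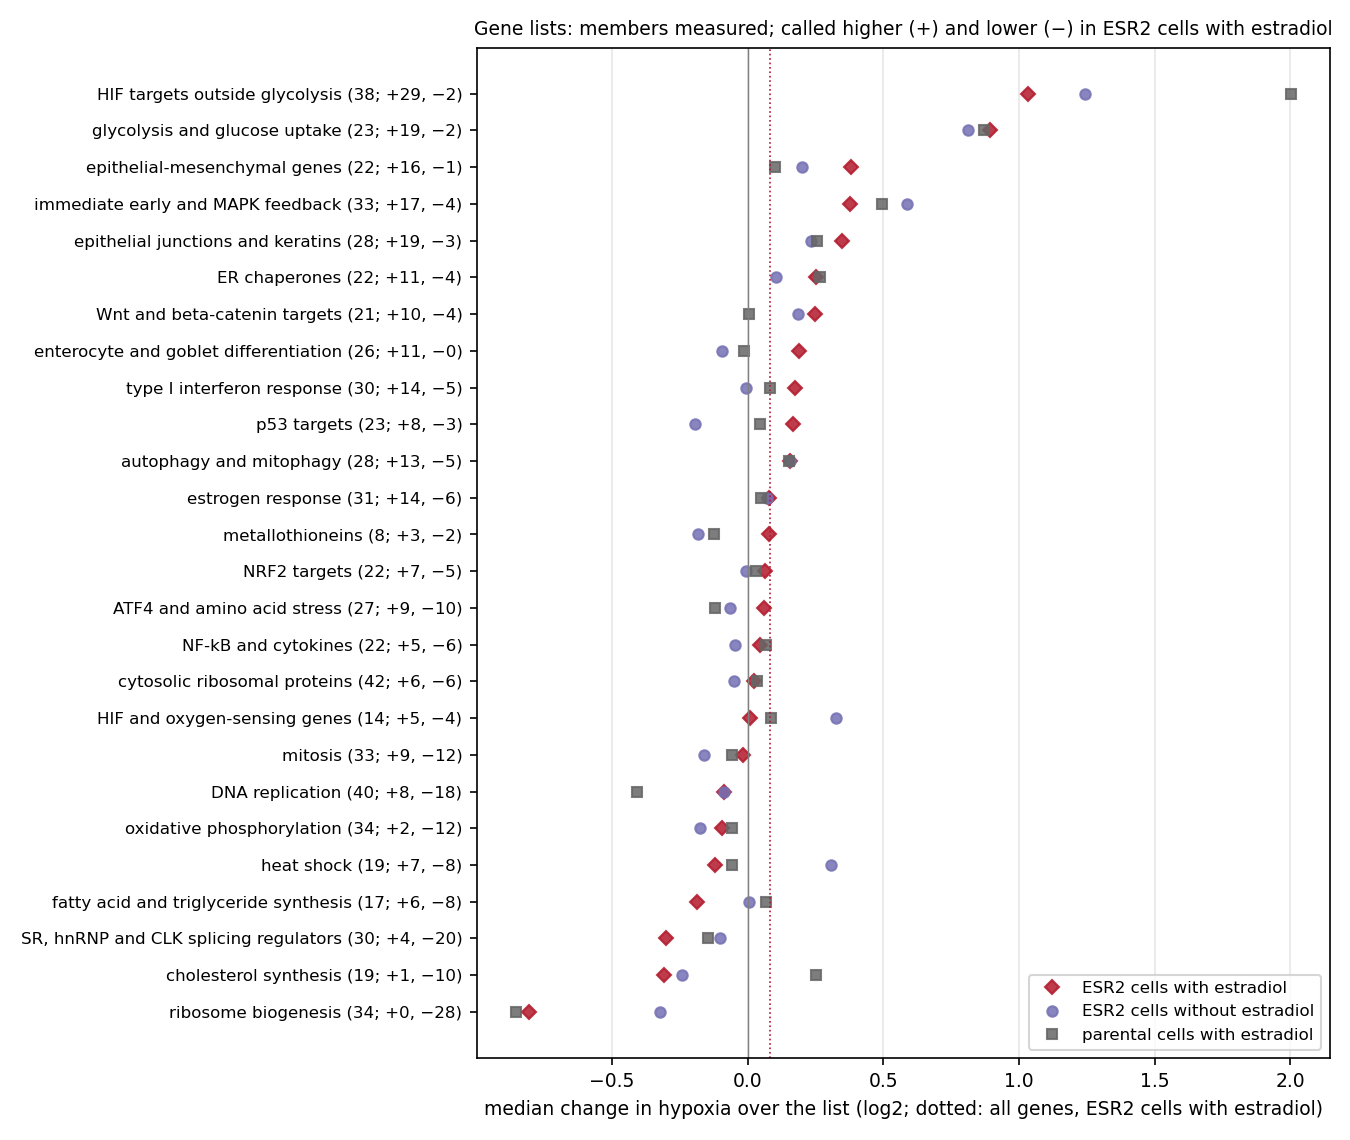
Median change in hypoxia (log2) of each of 26 gene lists in ESR2 cells with estradiol (diamonds), ESR2 cells without estradiol (circles) and parental cells with estradiol (squares); labels give the members measured and those called higher and lower in the first. HIF targets have the highest median (1.03) and ribosome biogenesis the lowest (-0.81), beside a median of 0.08 over all genes (dotted line).

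Whether hypoxia acted differently with estradiol was tested as an interaction over the 12 arrays of ESR2 cells. It was called for 7991 genes (43.8%), 4637 higher with estradiol (25.4%) and 3354 lower (18.4%). By 2-fold or more, 150 were higher (0.822%) and 892 lower (4.89%). Of the 892, 852 were themselves lower in hypoxia with estradiol, while without estradiol 394 of these were not called and 301 were called higher. Of the 150, 144 rose with estradiol. Across 18239 genes, which are not independent, the changes with and without estradiol correlated at 0.42. The 2 comparisons share no array. Of the genes higher with estradiol 1421 were also higher without it, 26.3% of the former and 54.2% of the latter. Of those lower, 1655 were lower in both (40.1% and 49.8%), and 460 and 511 genes were called in opposite directions. The index differs between these comparisons too, since it rose by 1.05 with estradiol and was 2.10 in hypoxia against 2.71 in normoxia without it. With the index as a covariate 2741 genes were higher and 3264 lower in the interaction. Without the outlying parental array as well, 1374 were higher and 2400 lower, so the larger share of higher calls depends on that setting.

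The 8 genes with the lowest interaction with estradiol were ARID1B, ZMIZ1, GRB10, KANK1, FHOD3, HIPK2, HIRA and DOCK1. ZMIZ1, a transcriptional coregulator of the PIAS-like family, read 6.52, 6.59 and 6.56 in normoxia and 4.69, 4.30 and 4.08 in hypoxia with estradiol. Its change was -2.20 with and 0.71 without estradiol (interaction -2.90 ± 0.15 SE, adjusted p = 4.34e-12). GRB10, an adaptor that binds insulin receptors, read 7.42, 7.62 and 7.51 against 6.56, 6.34 and 5.84. It fell by 1.27 with estradiol and rose by 1.55 without it, and by 1.52 in parental cells with estradiol. HIPK2, a kinase gene, fell by 2.34, but of its 9 probe sets 5 were called lower and 2 higher. HIRA, a histone chaperone gene, read 7.38, 7.32 and 7.38 against 5.47, 5.55 and 4.78, a wider spread in hypoxia than the others, and had the largest SE of the 8 (0.42). The 8 highest were ZNF789, IRF7, MAL2, AKR1B10, CCNE2, BST1, PPP3R1 and CD68. ZNF789, a zinc finger gene, rose from 3.43, 3.45 and 3.41 to 5.21, 5.58 and 5.34, and changed by 0.04 without estradiol. CD68, a lysosomal membrane protein gene that is abundant in macrophages, rose from 5.15, 5.26 and 5.34 to 7.14, 7.15 and 7.40. The other leukocyte markers did not lie above the array medians, TYROBP reading 3.96. The summed leukocyte markers were 7.93 to 8.10 (log2) in hypoxia and 7.02 to 7.04 in normoxia. Of the 10 markers 3 were called higher (30%, against 29.6% of all genes). Their median change was 0.13, and the largest was the 1.98 of CD68. MAL2 and BST1 were not called with estradiol (-0.21, adjusted p = 0.29, and -0.09, adjusted p = 0.477) and fell by 1.91 and 1.70 without it. AKR1B10, an aldo-keto reductase, rose by 0.57 and fell by 1.09 without estradiol, while PPP3R1, of calcineurin, rose by 1.05 on its brightest of 4 probe sets, of which 1 was called higher and 1 lower.

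Whether hypoxia acted differently in ESR2 and parental cells, both with estradiol, was tested in the same way. The interaction was called for 7043 genes (38.6%), 3749 higher in ESR2 cells (20.6%) and 3294 lower (18.1%), with 546 higher (2.99%) and 1023 lower (5.61%) by 2-fold or more. Of the 1023, 894 were lower in hypoxic ESR2 cells, and 487 of these were called higher in hypoxic parental cells. Of the 546, 431 rose in ESR2 cells, and 282 of these fell in parental cells. The changes of the 2 comparisons, which share no array, correlated at 0.34 across genes. Higher in both were 1348 genes (24.9% and 46% of the calls of each), and lower in both 1918 (46.5% and 56.2%).

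The 8 highest genes of this interaction were CCNE2, IL17RB, TP53I3, SLC35G1, TMEM38A, RGS2, SOCS4 and PSPC1. IL17RB, an interleukin-17 receptor subunit, rose from 7.04, 7.06 and 7.15 to 8.75, 8.74 and 8.69, and fell by 1.84 in parental cells (interaction 3.49, adjusted p = 1.76e-16). RGS2, a regulator of G protein signalling, rose by 1.89 and fell by 0.86 in parental cells, and SOCS4 rose by 1.28 and fell by 1.39. SLC35G1 was not called (0.17, adjusted p = 0.145) and fell by 2.86 in parental cells, so that its interaction rests on the parental fall. PSPC1, a paraspeckle protein gene, rose by 0.38 on its brightest probe set and fell by 2.23 in parental cells, but 3 of its 5 probe sets were called lower in ESR2 cells. The 8 lowest were LCORL, IMMP2L, ARID1B, FBXL17, DOCK1, SMYD3, IGF1R and NSMCE2. LCORL, a transcription cofactor gene, read 6.24, 6.26 and 6.42 in normoxia and 4.28, 3.90 and 4.59 in hypoxia, and rose by 1.58 in parental cells (interaction -3.63, adjusted p = 2.72e-14). DOCK1, an exchange factor for RAC, read 7.61, 7.66 and 7.77 against 5.02, 4.87 and 5.47 and rose by 0.68 in parental cells. IMMP2L, a mitochondrial peptidase gene, fell by 2.19 and rose by 1.42. The lysine methyltransferase gene SMYD3 fell by 2.23 on its brightest probe set, and its other probe set was called higher. IGF1R, the receptor of insulin-like growth factor 1, was dim, with 4.72, 4.87 and 4.83 against 3.46, 3.39 and 2.68, and of its 7 probe sets 2 were called lower and 1 higher.

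The genes with the lowest interactions shared a feature that the rules did not use: all 8 of each interaction span 100 kb or more of the genome, against 0 and 1 of the 8 highest and 17.4% of all genes with a known span. Spans are those of the RefSeq genes of GRCh38.p14, known for 18179 of the 18239 genes, and the classes of span and the split by brightness were chosen after the data were seen. Among genes above the median of mean signal, the median change in hypoxia was 0.06 for 1893 genes under 10 kb, 0.01 from 10 to 30 kb and -0.10 from 30 to 100 kb. It was -0.38 for 1304 genes of 100 to 300 kb and -0.81 for 234 genes of 300 kb or more. Of these 234 genes 74.8% were called lower, 40.2% by 2-fold or more and 8.97% higher, against 30.3%, 4.7% and 38.9% of the genes under 10 kb. Over all genes, dim ones included, the medians of the 5 classes were 0.13, 0.10, 0.05, -0.02 and 0.03, so the longest class was not the lowest. Of the 736 genes of 300 kb or more in that set 30.3% were called lower, 13.9% by 2-fold or more and 17.9% higher. Without estradiol the median of the 234 genes was -0.06, and in parental cells with estradiol it was 0.39, with 57.7% called higher. ARID1B (435 kb), DOCK1 (547 kb), FBXL17 (523 kb), SMYD3 (758 kb), RABGAP1L (836 kb) and IMMP2L (899.8 kb) are long genes in this sense, whereas FBXO4 (115 kb) and NSMCE2 (275 kb) fall in the class below. Of the 12 largest falls 5 spanned 100 kb or more and 7 did not, among them IFIT2, COQ2 and MAGOHB. Of the 12 largest rises 1 did, SLCO1B3.

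Among these bright genes the difference was seen on each array. The median centred signal of the 234 long genes minus that of the 1893 short ones was -0.85, -0.78 and -0.82 (log2) on the hypoxic arrays and -0.02, 0.03 and 0.06 on the normoxic ones. The groups did not overlap, and the difference of -0.84 had an exact two-sided permutation p of 0.1, the smallest possible. In ESR2 cells without estradiol the difference was 0.03 (exact permutation p = 0.7), in parental cells with estradiol 0.48 and in parental cells without it 0.52 (exact permutation p = 0.1 each). On the parental array with the index of 4.34 the value was -0.21. With the index as a covariate the median change of the 234 genes was -0.82, and without that array as well -0.85. When probe sets of a gene were averaged it was -0.47, with 71.8% called lower.

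**Figure D5:**
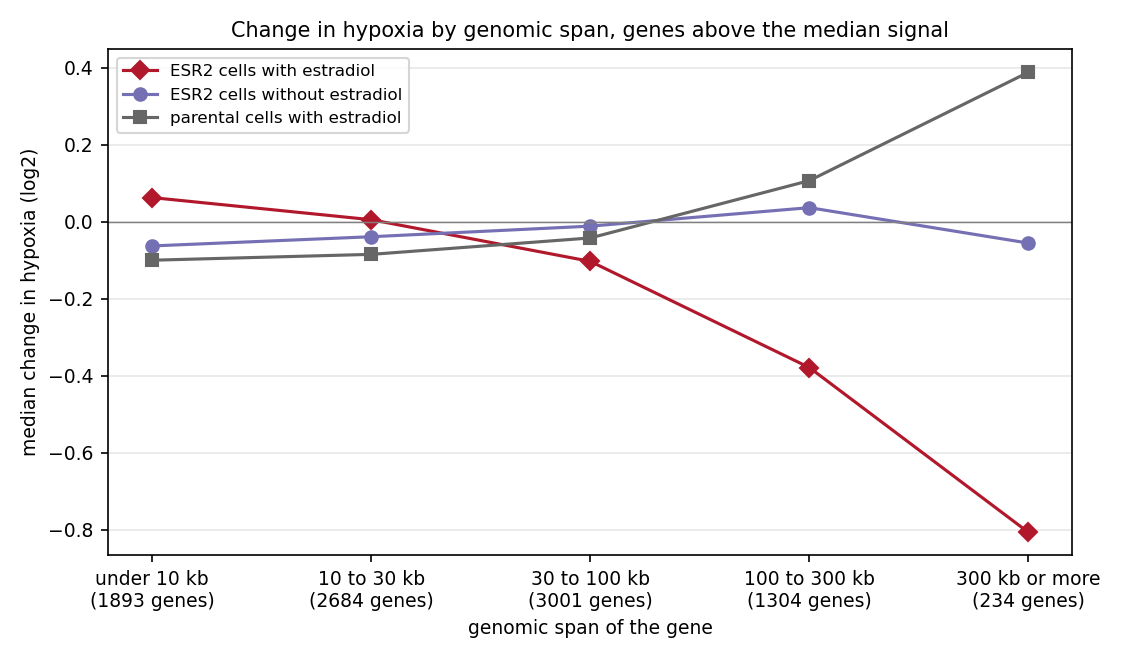
Median change in hypoxia (log2) of genes above the median signal, in 5 classes of genomic span (number of genes under each class), for ESR2 cells with estradiol (diamonds), ESR2 cells without estradiol (circles) and parental cells with estradiol (squares). The first falls from 0.06 in the shortest class to -0.81 in the longest, while the last reaches 0.39.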

How the data were processed

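RNA of 24 samples of HCT116 cells was measured on human Affymetrix 3′ expression arrays after in vitro transcription labelling of 100 ng RNA, with RNA integrity numbers between 8.5 and 10 per the labels. The deposited values are log2 signals of 49386 probe sets made by the authors with RMA and affy, per the submitters' processing notes; their versions are not stated there. Probe sets with 1 gene symbol (45253) were kept, those with several (1327) or none (2713) and 93 control probe sets were not tested, and each gene was read from its brightest probe set. Group means of all 24 arrays were fitted with limma 3.58.1 in R 4.3.3 (16 residual degrees of freedom), 2 interactions were taken from the same fit, and p-values were adjusted over 18239 genes by the Benjamini-Hochberg method. A gene was called at an adjusted p under 0.05. Steps were tested on simulated data. Not every control transcript is reported here.

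The comparison, the 26 gene lists and the named genes were chosen with earlier results of these data known. Named were the 12 largest rises and 12 largest falls without overlap, the 8 highest and 8 lowest genes of each interaction, up to 4 members of each list by p, and 9 genes of oxygen sensing and estrogen receptors; others are marked as named after their values were seen. As alternatives, arrays were quantile-normalized again, centred on their medians or weighted; probe sets were averaged or all tested; the prior was made robust with a trend on intensity; the fit was limited to the groups compared, given the replicate block or the 3′ minus 5′ index as a covariate; and arrays or dim genes were left out. Of the called genes 56.7% were higher, and 51.3% after median centring. Promoters came from the RefSeq table and were searched on both strands. Python 3.11.15 with pandas 2.3.3 and matplotlib 3.10.9 was used for promoters and plots.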

Additional observations from a re-analysis of the deposited data

Results flagged for a closer look

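The change between hypoxia and normoxia in ESR2 cells was compared with and without estradiol by limma's test of the difference itself (adjusted p under 0.05). It was higher with estradiol for 4637 genes (25.4%) and lower for 3354 (18.4%). In the adjusted fit 1374 genes were higher and 2400 lower. Added control RNAs differed between these arrays too, so hypoxia and the processing of the arrays cannot be told apart here. The highest differences (log2, with minus without estradiol) were 1.9 for ZNF789, 1.86 for IRF7, 1.69 for MAL2, 1.66 for AKR1B10, 1.64 for CCNE2, 1.62 for BST1, 1.60 for PPP3R1 and 1.59 for CD68. The lowest were -3.22 for ARID1B, -2.90 for ZMIZ1, -2.82 for GRB10, -2.74 for KANK1, -2.73 for FHOD3, -2.61 for HIPK2, -2.58 for HIRA and -2.57 for DOCK1.

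Between ESR2 and parental cells, both with estradiol, this change was higher by the same test for 3749 genes (20.6%) and lower for 3294 (18.1%). In the adjusted fit 2674 were higher and 3054 lower, and the processing of the arrays cannot be told apart here either. The highest differences (log2, ESR2 minus parental cells) were 3.74 for CCNE2, 3.49 for IL17RB, 3.38 for TP53I3, 3.04 for SLC35G1, 2.77 for TMEM38A, 2.75 for RGS2, 2.67 for SOCS4 and 2.61 for PSPC1. The lowest were -3.63 for LCORL, -3.61 for IMMP2L, -3.42 for ARID1B, -3.28 for FBXL17, -3.24 for DOCK1, -3.18 for SMYD3, -3.08 for IGF1R and -3.04 for NSMCE2.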

How the results depend on the processing

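With probe sets averaged per gene, ARNT was called higher (0.41), DNAJA1 changed sign without being called (0.074, adjusted p = 0.238), and the genes past 2-fold, higher and lower, were 262 and 518 in hypoxia with estradiol, 80 and 420 in the interaction with estradiol, and 336 and 586 in that with ESR2. With every probe set tested, which adds tests, called higher, lower, and 2-fold higher and lower were 11124, 9593, 935 and 2098 in hypoxia with estradiol, 8653, 7795, 364 and 2103 in the interaction with estradiol, and 7265, 7310, 1128 and 2304 in that with ESR2. With the 3′ minus 5′ index as a covariate the interaction with estradiol had 2741 genes higher and 3264 lower, with 264 higher by 2-fold. Without parental normoxia array 2 as well, 3008 genes were higher and 3568 lower in hypoxia, and 1374 and 2400 in that interaction. Quantile normalization again gave 306 genes 2-fold higher in it. The causes were not tested. Leaving out each replicate gave 4564 to 5031 genes higher and 3837 to 4012 lower, and by 2-fold 431 to 476 and 921 to 996. For the interaction with estradiol the ranges were 3745 to 5061, 3092 to 3414, 146 to 176 and 816 to 970, and for that with ESR2 3298 to 3618, 3066 to 3263, 520 to 566 and 966 to 1069. Of 159 results on named genes 149 kept their call and, where called, their direction under the alternatives that give 1 value per gene. The test of every probe set is not among these. Most named genes were chosen by large changes or small p on the same arrays, which favours keeping a call. Besides DNAJA1 and ARNT, calls of MKI67, SLC30A1, MT1E, RPS9, RPL8, RPS25 and ESR1 were lost under at least 1 alternative, and VHL gained one under 4. Equal replicate numbers did not pair the arrays: deviations of same-numbered arrays correlated at 0.03, 0.03 and -0.08. With the replicate block 5327 genes were higher and 4075 lower in hypoxia, 4509 and 3310 in the interaction with estradiol and 3670 and 3250 in that with ESR2. With 3 arrays a group, dim genes such as ESR2 and IGF1R rest on signals near the array medians.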
